A study of Mus musculus with 11 samples.

Results

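The TNF ligand and receptor superfamily was followed in colonic CD4 T cells that lacked the interleukin 23 receptor and in receptor-sufficient cells from the same transfer model. Members were the probes of an Illumina mouse bead array whose platform gene symbol begins with Tnfsf or Tnfrsf, together with the probes named Tnf, Lta, Ltb, Ltbr, Fas, Fasl, Cd27, Cd40, Cd40lg and Cd70. This rule took 78 probes for 41 genes out of 45281 probes on the array. Probes with a detection p under 0.05 on 5 or more arrays were kept for the comparison, 49 for 27 member genes among 18003 for 9139 named genes in all. The 2 groups were Il23r-/- (5 arrays) and WT (6 arrays), both given as C57BL/6 and both TCRβ+CD4+ T cells. Naive donor CD4 T cells of both genotypes had been transferred together into Rag1-/- mice, whose own lymphocytes of the T and B lineages do not mature while myeloid and innate lymphoid cells remain, and colitis had developed. The donor cells were then sorted from the colon lamina propria by congenic markers, and RNA was taken with no further handling. Nothing in the labels ties samples to single recipients, so each p-value reflects sample-to-sample spread that may be partly technical. No age or sex is given.

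Ligands of this superfamily are mostly trimers held in the cell membrane, and several are cut loose by proteases. Their receptors recruit TRAF adaptors or, where they carry a death domain, adaptors such as TRADD and FADD, and so lead to NF-κB and MAP kinase signalling or to caspases and cell death. In T cells the family supplies inflammatory cytokines (TNF and the lymphotoxins), death signals (Fas ligand and TRAIL), costimulation (OX40, 4-1BB, GITR and CD27) and signals to B cells and bone (BAFF and RANKL). TNF is a target of antibody treatment in inflammatory bowel disease. The interleukin 23 receptor signals mainly through STAT3 and supports the Th17 program, in which the nuclear receptor RORγt acts.

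The promoters of Tnfrsf1a and Tnfsf13b are shown because each gene had at least 2 probes with a genotype difference, lower in Il23r-/- cells for the first and higher for the second. Both are the 250 bases before the transcription start in RefSeq on GRCm38.p6, at chr6:125349473-125349722 and chr8:10006217-10006466, on the + strand. Capitals mark a match to TTCNNNGAA, the spacing bound by STAT factors, which reads the same on both strands. The other motif searched, on both strands, was AGGTCA, the core of sites for ROR receptors.
Tnfrsf1a: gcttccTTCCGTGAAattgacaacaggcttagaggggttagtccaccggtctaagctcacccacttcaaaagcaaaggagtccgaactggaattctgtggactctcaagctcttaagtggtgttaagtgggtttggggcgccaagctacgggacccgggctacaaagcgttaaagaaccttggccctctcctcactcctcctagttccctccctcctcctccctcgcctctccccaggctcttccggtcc
Tnfsf13b: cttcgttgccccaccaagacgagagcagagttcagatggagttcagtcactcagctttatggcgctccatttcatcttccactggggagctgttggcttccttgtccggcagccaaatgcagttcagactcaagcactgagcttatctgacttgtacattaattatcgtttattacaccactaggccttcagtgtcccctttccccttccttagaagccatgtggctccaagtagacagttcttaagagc
The match in the Tnfrsf1a promoter, TTCCGTGAA, began 244 bases before the start. Neither motif was found in the Tnfsf13b window, nor in the window of a second annotated start of that gene. In windows of 300 bases, which include the first bases of the transcript, TTCNNNGAA was present in 8.3% of all 32851 RefSeq promoters and in 9 of the 35 windows found for 31 member genes. Those 9 windows belong to Fas, Lta, Ltb, Tnfrsf18, Tnfrsf19, Tnfrsf1a, Tnfrsf1b, Tnfrsf25 and Tnfrsf9. AGGTCA was present in 16.3% of all promoters and in 4 of the 35 member windows, those of Tnfrsf13b, Tnfrsf25, Tnfrsf9 and Tnfsf10. A match of letters is a description of the window and not a binding site.

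All values below are log2 levels after background correction and quantile normalization, so a difference of 1 is a doubling, and differences are Il23r-/- minus WT. Between 17309 and 18440 probes were above background on each array. The precision of each value is limited by the number of arrays. Counts at an unadjusted p under 0.05 are given without the share of all kept probes, so they only describe each list. The Il23r probe was above background on 0 of 11 arrays, so the array did not check the genotype labels. Of the T cell identity genes, 11 of 11 measured were kept, with Cd3g at 14.83 ± 0.12 in Il23r-/- and 14.78 ± 0.14 in WT cells (SD), and 0 passed the test (0 higher and 2 lower at an unadjusted p under 0.05). Among genes of other cell types, Cd8a, Ncr1, Itgam, Itgax, Pax5, Blnk, Jchain, Mzb1, Epcam, Krt19, Vil1 and 8 of 10 stromal and endothelial genes were above background on no array. Others of the same lists were detected. Cd8b1 averaged 10.36 ± 0.12 in Il23r-/- and 10.54 ± 0.18 in WT cells (SD) on its brighter probe. Its other kept probe went the other way, at 0.52, and neither was called. The epithelial genes Cdh1, Krt8, Muc2 and Krt18 were above background on 11, 11, 11 and 10 arrays. Cdh1 differed by 0.82 ± 0.21 (SE, adjusted p = 0.071) on its brighter probe and by 0.18, not called, on the other. Krt18 differed by -0.75 ± 0.24 (SE, adjusted p = 0.133). The summed level of the 4 epithelial genes, by brightest probe, overlapped, at 598 to 910 in Il23r-/- and 489 to 1072 in WT cells. Of the regulatory T cell genes, each taken by its brightest probe, 9 of 9 measured had positive differences (median 0.31). On these probes 2 passed, Nt5e at 0.44 ± 0.09 (SE, adjusted p = 0.0198) and Itgae at 0.60 ± 0.12 (SE, adjusted p = 0.0216). Direction depended on the probe for Il2ra, at 0.31 on the brightest and -0.54 on the other, and for Capg, at 0.25 and -0.02. The other kept probes of Nt5e, Itgae and Foxp3 were positive. Foxp3, the lineage factor of these cells, averaged 9.92 ± 0.10 in Il23r-/- and 9.89 ± 0.14 in WT cells (SD) on its brightest probe, a difference of 0.03 ± 0.09 (SE, adjusted p = 0.91). Its other 3 kept probes differed by 1.34 ± 0.29 (SE, adjusted p = 0.0348), 1.23 ± 0.34 (SE, adjusted p = 0.0973) and 1.07 ± 0.19 (SE, adjusted p = 0.0129), so 2 of 4 passed, the last of these being above background on 5 of 5 Il23r-/- and 1 of 6 WT arrays. The summed linear level of these regulatory T cell genes, by brightest probe, ran between 38419 and 46766 in Il23r-/- and between 33105 and 38195 in WT cells, without overlap. Bright genes such as Ctla4 and Itgae weigh most in this sum. The called genes Itgae and Nt5e are part of it, so it is not a separate result. Ctla4, the brightest, averaged 14.35 ± 0.18 in Il23r-/- and 14.24 ± 0.07 in WT cells (SD), a difference of 0.12 ± 0.09 (SE, adjusted p = 0.529). Of the CD8 and natural killer cell genes, 1 of 6 kept passed, Klre1 at 1.25 ± 0.25 (SE, adjusted p = 0.0231). Klre1 was above background on 9 of 11 arrays and averaged 7.37 ± 0.51 in Il23r-/- and 6.13 ± 0.46 in WT cells (SD). By brightest probe, 2 genes of this list had positive and 4 had negative differences (median -0.14). The part of these genes in the results below was not tested, and in sorted bulk RNA a change in the share of cells and a change in RNA per cell cannot be told apart.

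Genotype differences in the superfamily fell on 3 genes. Tnfrsf1a, which encodes TNF receptor 1, was lower in Il23r-/- cells on all 3 of its probes, with differences of -0.82, -0.77 and -0.67 on the log2 scale. Tnfsf13b, which encodes the B cell survival factor BAFF, was higher in Il23r-/- cells on both kept probes, by 0.54 and 0.55, with calls near the threshold. Of the 3 kept probes for Tnfrsf10b, the mouse receptor for TRAIL, 1 was higher by 0.55. The brightest of them pointed the other way, at -0.43, and did not pass. The other 24 genes, among them Tnf, the lymphotoxins, Fas, Fas ligand and the costimulatory receptors, had no probe that passed.

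In counts, 3 of the 49 kept member probes were higher (6.12%) and 3 were lower (6.12%) at an adjusted p under 0.05, beside 1.17% higher and 0.611% lower among all kept probes. In either direction 6 member probes passed, 12.2%, beside 1.78% of all, and by gene 3 of 27 had a called probe, beside 2.43% of all named genes. Among all kept probes 65.6% of the calls were higher, and 77.4% when arrays were scaled to equal medians. The 6 probes come from 3 genes and so are not independent of each other. The genotypes did not overlap on 7 member probes (14.3%, beside 3.21% of all), which were the 6 called and 1 more for Tnfrsf10b. Differences were positive on 23 member probes and negative on 26, with a median of -0.04 beside -0.01 over all kept probes. Of the 43 member probes that did not pass, 42 had a 95% confidence interval that excluded a 2-fold difference and 32 one that excluded 1.5-fold. The exception at 2-fold was Tnfsf4.

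**Figure D1:**
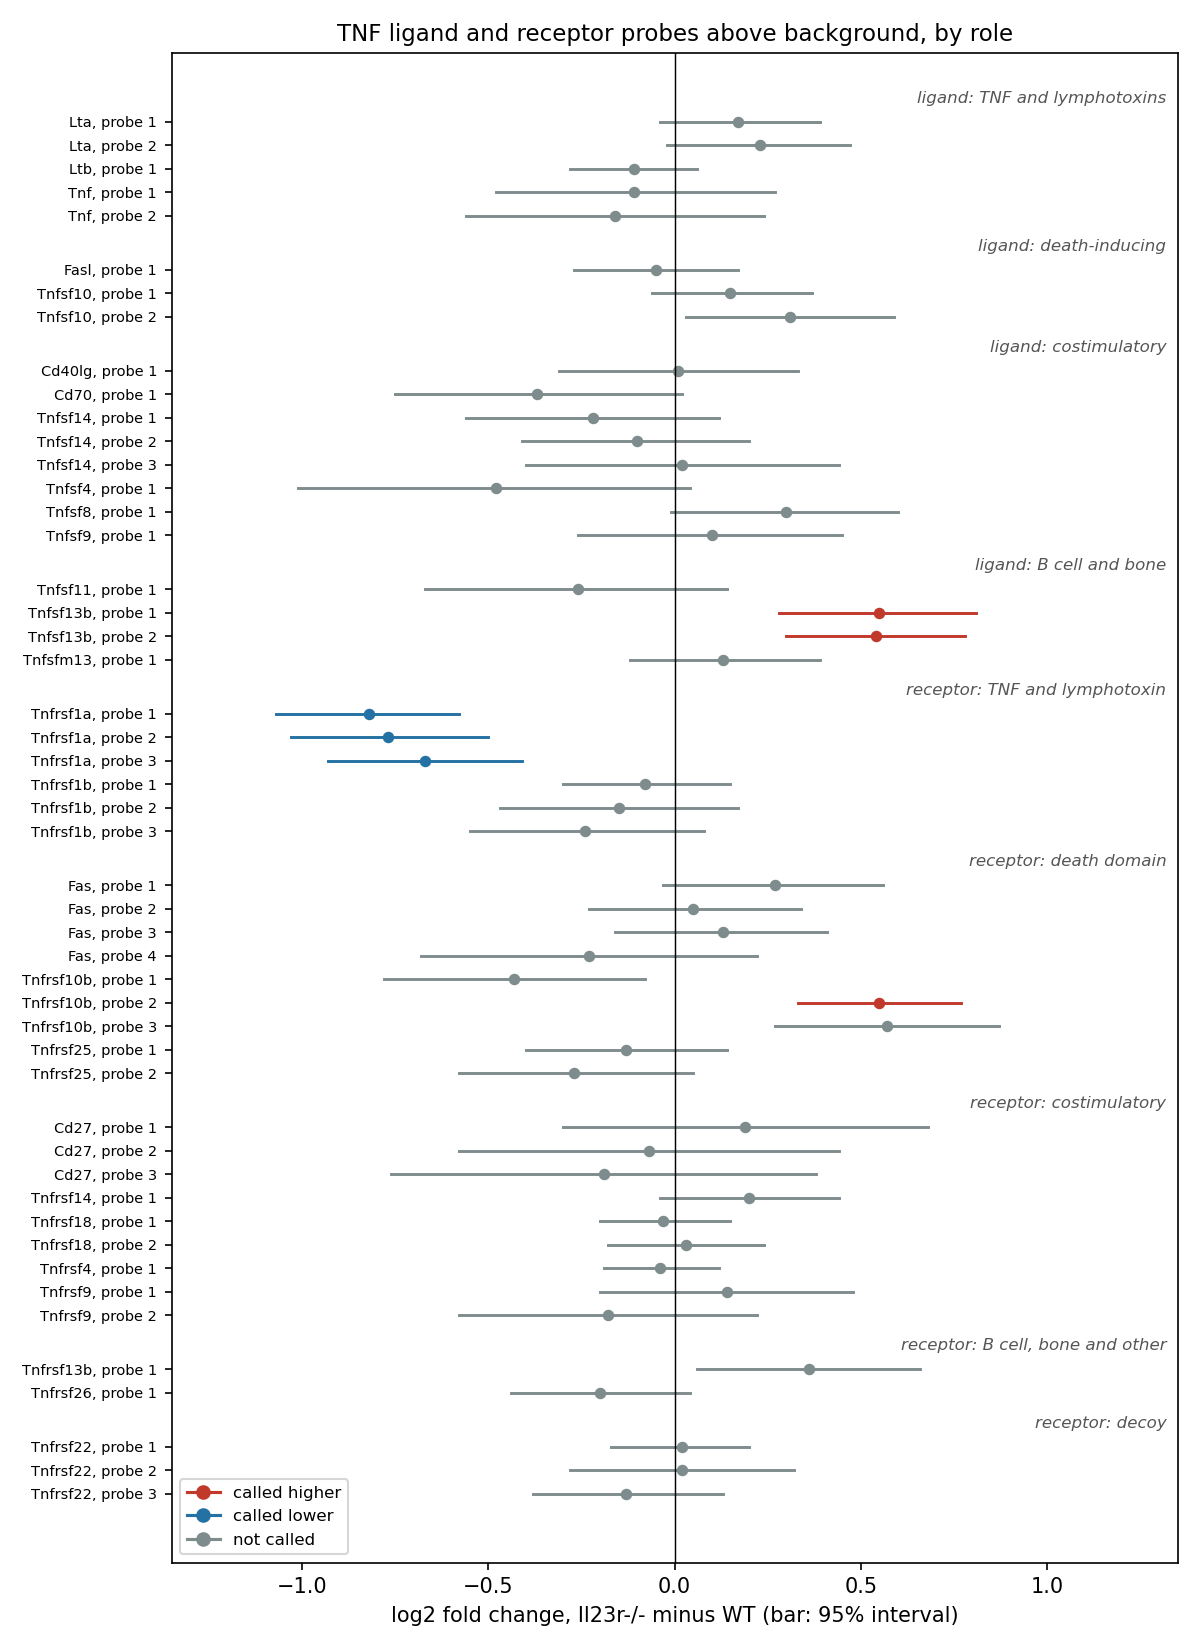
Differences in log2 level (Il23r-/- minus WT) with 95% confidence intervals for the 49 kept member probes, ordered by role. The 3 Tnfrsf1a probes lie lowest, at -0.82, -0.77 and -0.67, and the called probes above 0 are both kept Tnfsf13b probes and 1 of Tnfrsf10b.

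Tnf, Lta and Ltb, the ligands of the TNF and lymphotoxin receptors, lie side by side on chromosome 17, and 5 of 5 of their probes were above background on every array, with 0 called by limma and 0 at an unadjusted p under 0.05. Tnf, the inflammatory cytokine, gave 9.96, 10.59, 10.28, 9.90 and 9.94 on its brighter probe in Il23r-/- cells, against 9.98, 10.14 and 10.92 as the lowest, median and highest WT value. Its second probe gave 9.66, 10.34, 10.32, 10.01 and 9.98 in Il23r-/- cells, against 9.68, 10.13 and 10.88 in WT cells. The ranges overlapped widely, since WT replicate 6 was the highest of all on both probes while other WT values lay among the Il23r-/- ones. The differences were -0.11 ± 0.17 (SE, adjusted p = 0.789) and -0.16 ± 0.19 (SE, adjusted p = 0.688), and the 95% interval of the first ran from -0.48 to 0.27. The sign of the first changed in 3 alternative settings, all of them fits without WT replicate 6.

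Lymphotoxin alpha, the soluble partner made from Lta, read 10.22, 10.34, 10.32, 10.42 and 10.32 in Il23r-/- cells on its brighter probe, against 9.81, 10.22 and 10.33 as the lowest, median and highest in WT cells. The dimmer probe read 8.48, 8.27, 8.46, 8.43 and 8.10 in Il23r-/- cells, against 7.94, 8.07 and 8.49 in WT cells. Both probes overlapped between genotypes, with differences of 0.17 ± 0.10 (SE, adjusted p = 0.384) and 0.23 ± 0.11 (SE, adjusted p = 0.325). Lymphotoxin beta, which anchors the complex to the membrane and shapes lymphoid tissue, read 12.27, 12.38, 12.38, 12.28 and 12.36 in Il23r-/- cells, against 12.30, 12.43 and 12.62 in WT cells. These values overlapped too, and the difference was -0.11 ± 0.08 (SE, adjusted p = 0.486).

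Tnfrsf1a, the death domain receptor that most cells carry, gave 7.50, 7.82, 7.59, 7.51 and 7.74 in Il23r-/- cells on its brightest probe, against 8.27, 8.14, 8.64, 8.43, 8.52 and 8.73 in WT cells. Every Il23r-/- value was below every WT value, and WT cells were 1.77-fold higher on the linear scale. The difference was -0.82 ± 0.11 (SE, adjusted p = 0.00233), with a 95% interval from -1.07 to -0.58.

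The second Tnfrsf1a probe gave 7.52, 7.89, 7.48, 7.66 and 7.74 in Il23r-/- cells, against 8.23, 8.04, 8.70, 8.51, 8.45 and 8.63 in WT cells, a difference of -0.77 ± 0.12 (SE, adjusted p = 0.00717). The third gave 7.51, 7.84, 7.54, 7.70 and 7.82 in Il23r-/- cells, against 8.26, 7.92, 8.54, 8.30, 8.55 and 8.52 in WT cells, a difference of -0.67 ± 0.12 (SE, adjusted p = 0.015). The genotypes were apart on these probes as well, and the narrowest gap was on the third, between 7.84 as the highest Il23r-/- value and 7.92 as the lowest WT value. All 3 probes passed in each of the 11 fits that left out 1 array. The highest adjusted p of these fits was 0.00948, 0.0249 and 0.0443 in the same order of probes. Of the 1418 genes with 3 or more kept probes, 4 (0.282%) had every probe called, and Tnfrsf1a is among them.

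**Figure D2:**
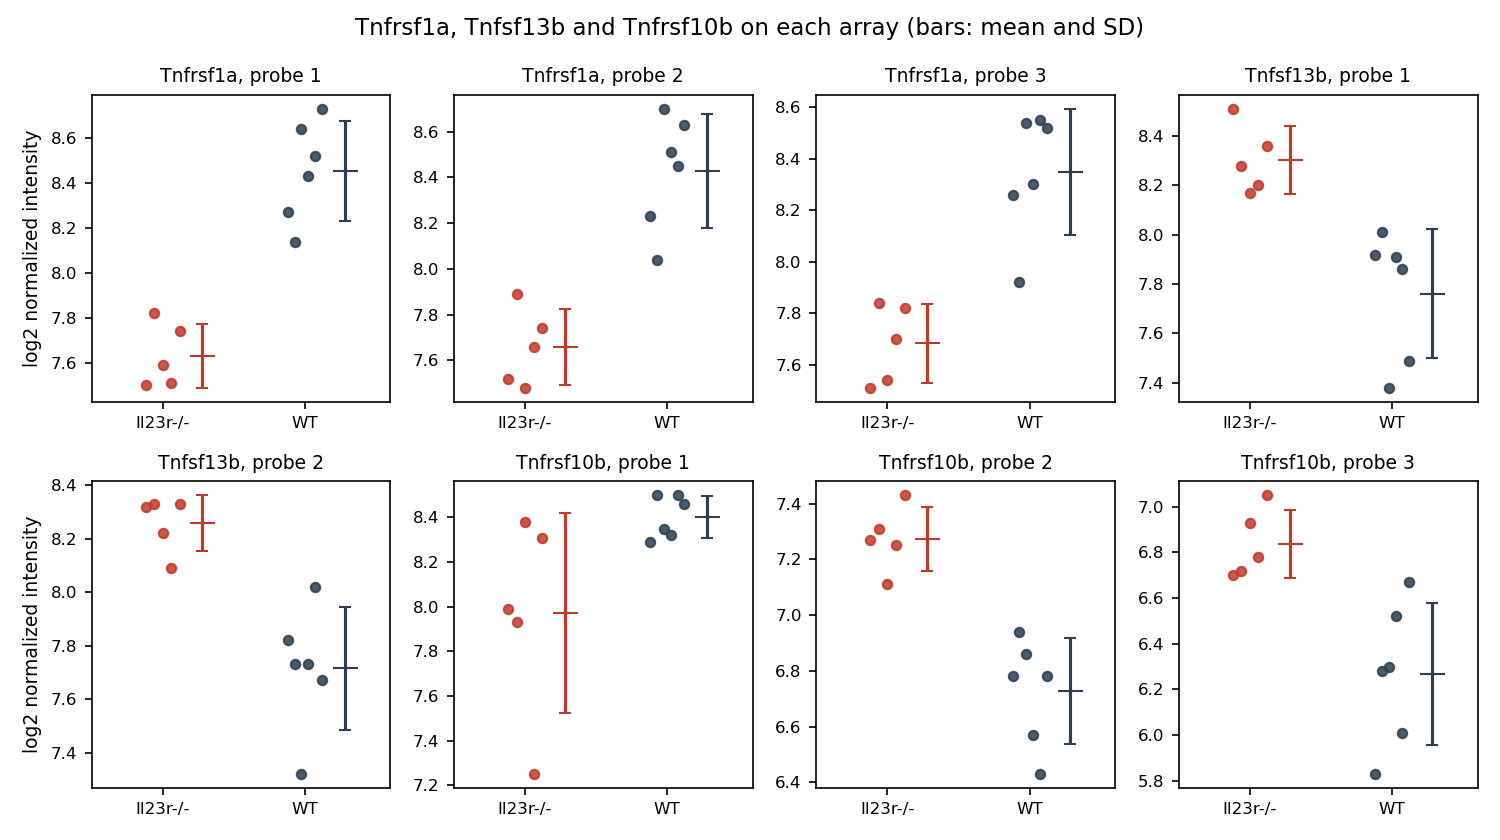
Log2 level per array on the probes of Tnfrsf1a, Tnfsf13b and Tnfrsf10b (1 point per array, with the mean and SD beside the points, Il23r-/- left of WT). The genotypes are apart on every Tnfrsf1a probe and on both kept Tnfsf13b probes, while the brightest Tnfrsf10b probe points the other way from its 2 dimmer ones.

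Tnfrsf1b encodes TNF receptor 2, which has no death domain and is found mainly on immune cells. Its brightest probe read 10.99, 10.99, 10.87, 10.86 and 11.21 in Il23r-/- cells, against 10.85, 11.04 and 11.41 as the lowest, median and highest in WT cells. The second read 9.00, 8.93, 9.13, 9.21 and 9.58 in Il23r-/- cells, against 8.95, 9.25 and 9.76 in WT cells, and the third 8.61, 8.56, 8.47, 8.72 and 9.04 in Il23r-/- cells, against 8.37, 8.97 and 9.30 in WT cells. The genotypes overlapped on each, with WT replicate 6 the highest array on all 3. The differences were -0.08 ± 0.11 (SE, adjusted p = 0.752), -0.15 ± 0.15 (SE, adjusted p = 0.645) and -0.24 ± 0.15 (SE, adjusted p = 0.428). The lymphotoxin beta receptor Ltbr, best known from stromal and myeloid cells, was above background on no array.

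The distance between both TNF receptors was taken within each array, as the mean of the 3 Tnfrsf1a probes minus the mean of the 3 Tnfrsf1b probes. It was -1.96 ± 0.19 in Il23r-/- cells (SD, range -2.18 to -1.65, n = 5) and -1.36 ± 0.18 in WT cells (SD, range -1.53 to -1.04, n = 6), so the ranges did not overlap. The difference of -0.60 had a two-sided exact permutation p of 0.00216, the smallest that the 462 arrangements of 11 arrays allow. This comparison was chosen after the values were seen, so the p is descriptive. Levels of different probes are not comparable, so only the shift between genotypes can be read from it.

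Among death-inducing ligands 0 of 3 kept probes passed limma's test, and 1, for Tnfsf10, had an unadjusted p under 0.05. Fasl, the ligand by which T cells kill Fas-bearing cells, was bright at 12.69, 12.79, 12.58, 12.83 and 12.79 in Il23r-/- cells, against 12.53, 12.76 and 13.04 as the lowest, median and highest in WT cells. The Il23r-/- values lay inside the WT range, and the difference was -0.05 ± 0.10 (SE, adjusted p = 0.845). Tnfsf10, which encodes TRAIL, gave 8.31, 8.48, 8.06, 8.33 and 8.27 in Il23r-/- cells, against 7.95, 8.14 and 8.41 in WT cells on one probe, a difference of 0.15 ± 0.10 (SE, adjusted p = 0.447). On the other it gave 8.25, 8.09, 8.26, 8.12 and 8.57 in Il23r-/- cells, against 7.58, 7.92 and 8.26 in WT cells, a difference of 0.31 ± 0.13 (SE, adjusted p = 0.23). Both TRAIL probes overlapped between genotypes. Tnfsf12, the TWEAK gene, was above background on no array.

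Tnfrsf10b, whose product binds TRAIL and carries a death domain, was measured by 3 kept probes that are annotated to the same gene. The brightest gave 7.99, 7.93, 8.38, 7.25 and 8.31 in Il23r-/- cells, against 8.29, 8.50, 8.35, 8.32, 8.50 and 8.46 in WT cells, a difference of -0.43 ± 0.16 (SE, adjusted p = 0.198). The second gave 7.27, 7.31, 7.11, 7.25 and 7.43 in Il23r-/- cells, against 6.78, 6.94, 6.86, 6.57, 6.43 and 6.78 in WT cells, a difference of 0.55 ± 0.10 (SE, adjusted p = 0.0158). The third gave 6.70, 6.72, 6.93, 6.78 and 7.05 in Il23r-/- cells, against 5.83, 6.28, 6.30, 6.52, 6.01 and 6.67 in WT cells, a difference of 0.57 ± 0.14 (SE, adjusted p = 0.0622). On the brightest probe 3 of 5 Il23r-/- arrays were below every WT array, whereas on the other probes all 5 were above every WT array, so the gene has no single direction in these data. The second probe passed in all 11 fits without 1 array. The third missed with all arrays and passed without WT replicate 6 (adjusted p = 0.0303) and with equal medians (adjusted p = 0.0289).

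Fas, the receptor for Fas ligand, had 4 kept probes and 0 called. From brightest to dimmest they read 11.82, 12.47, 12.35, 12.19 and 12.04, then 10.59, 11.17, 10.77, 10.73 and 10.80, then 8.56, 9.28, 9.08, 8.85 and 8.70, then 6.27, 7.35, 6.92, 6.94 and 6.85 in Il23r-/- cells. The WT lowest, median and highest values in the same order were 11.56, 11.93 and 12.16, then 10.39, 10.80 and 11.07, then 8.55, 8.73 and 9.08, then 6.67, 7.09 and 7.82. The genotypes overlapped on all 4 probes, and Il23r-/- replicate 2 was the highest Il23r-/- array on each. The differences were 0.27, 0.05, 0.13 and -0.23, with adjusted p of 0.328, 0.871, 0.66 and 0.599.

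Tnfrsf25 encodes DR3, the death domain receptor for TL1A, a cytokine of gut inflammation that costimulates T cells. It gave 11.88, 11.54, 12.19, 11.68 and 11.80 in Il23r-/- cells, against 11.79, 11.86 and 12.29 as the lowest, median and highest in WT cells on the brighter probe, a difference of -0.13 ± 0.12 (SE, adjusted p = 0.618). On the dimmer probe it gave 8.51, 7.98, 8.75, 8.12 and 8.35 in Il23r-/- cells, against 8.37, 8.57 and 8.94 in WT cells, a difference of -0.27 ± 0.15 (SE, adjusted p = 0.357). Both overlapped, and Il23r-/- replicate 2 was the lowest of all arrays on each. Its ligand gene Tnfsf15 was above background on no array, as was the death receptor gene Tnfrsf21.

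Among costimulatory ligands 0 of 8 kept probes passed limma's test, and 0 had an unadjusted p under 0.05. Cd40lg, the signal of helper T cells to CD40 on B cells and dendritic cells, gave 7.63, 7.41, 7.54, 7.19 and 7.96 in Il23r-/- cells, against 7.26, 7.48 and 8.03 as the lowest, median and highest in WT cells. The ranges overlapped, and the difference was 0.01 ± 0.15 (SE, adjusted p = 0.97), with a sign that changed in 4 alternative settings. Tnfsf8, the CD30 ligand, gave 10.86, 10.89, 11.07, 11.27 and 11.35 in Il23r-/- cells, against 10.43, 10.79 and 11.13 in WT cells, a difference of 0.30 ± 0.14 (SE, adjusted p = 0.303). All 5 Il23r-/- values of Tnfsf8 lay above the WT median of 10.79, yet the ranges overlapped.

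Tnfsf14 encodes LIGHT, a ligand of HVEM and the lymphotoxin beta receptor. Its probes gave 9.88, 10.72, 10.54, 10.17 and 10.04, then 8.25, 8.71, 8.46, 8.11 and 8.28, then 6.66, 7.53, 7.25, 6.97 and 6.97 in Il23r-/- cells, from brightest to dimmest. The WT lowest, median and highest were 10.20, 10.46 and 10.82, then 8.05, 8.45 and 8.78, then 6.43, 7.05 and 7.55. All 3 overlapped, with differences of -0.22, -0.10 and 0.02 and adjusted p of 0.494, 0.743 and 0.973. Cd70 and Tnfsf9 lie beside Tnfsf14 on chromosome 17. Cd70, the CD27 ligand, gave 6.65, 7.00, 7.10, 6.29 and 7.21 in Il23r-/- cells, against 6.92, 7.16 and 7.63 in WT cells, a difference of -0.37 ± 0.18 (SE, adjusted p = 0.311). Tnfsf9, the 4-1BB ligand, differed by 0.10 ± 0.17 (SE, adjusted p = 0.803).

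Tnfsf4, the OX40 ligand, was near background, above it on 4 of 5 Il23r-/- arrays and 6 of 6 WT arrays. It gave 5.85, 5.95, 6.16, 6.03 and 5.37 in Il23r-/- cells, against 5.70, 6.35 and 7.30 as the lowest, median and highest in WT cells. The ranges overlapped, and the WT values spread over more than 1 log2 unit. The difference was -0.48 ± 0.25 (SE, adjusted p = 0.327), with a 95% interval from -1.01 to 0.04. Tnfsf18, the GITR ligand, which lies between Tnfsf4 and Fasl on chromosome 1, was above background on no array.

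The costimulatory receptors held no called probe: at an unadjusted p under 0.05 as well, 0 of 9 kept probes passed. Tnfrsf4, which encodes OX40, a marker of activated and regulatory CD4 T cells, gave 14.74, 14.69, 14.76, 14.63 and 14.79 in Il23r-/- cells, against 14.63, 14.78 and 14.81 as the lowest, median and highest in WT cells. The difference was -0.04 ± 0.07 (SE, adjusted p = 0.823), with a 95% interval from -0.19 to 0.12. Tnfrsf18, its neighbour on chromosome 4, encodes GITR and gave 13.14, 13.13, 13.40, 13.13 and 13.30 in Il23r-/- cells, against 13.17, 13.23 and 13.35 in WT cells on its brighter probe. The dimmer Tnfrsf18 probe gave 12.97, 12.60, 12.99, 12.69 and 12.86 in Il23r-/- cells, against 12.67, 12.74 and 12.98 in WT cells. The genotypes overlapped on all 3 of these probes, and the Tnfrsf18 differences were -0.03 ± 0.08 (SE, adjusted p = 0.896) and 0.03 ± 0.10 (SE, adjusted p = 0.907).

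Tnfrsf9, the 4-1BB gene of recently activated T cells, gave 10.73, 10.76, 10.87, 10.84 and 10.91 in Il23r-/- cells, against 10.28, 10.66 and 11.19 in WT cells on the brighter probe. On the dimmer probe it gave 9.93, 9.60, 10.19, 9.84 and 9.98 in Il23r-/- cells, against 9.36, 10.16 and 10.62 in WT cells. The ranges overlapped on both, and the differences had opposite signs, 0.14 ± 0.16 (SE, adjusted p = 0.688) and -0.18 ± 0.19 (SE, adjusted p = 0.646). Cd27, a receptor that supports memory formation, had 3 kept probes with differences of 0.19, -0.07 and -0.19 and adjusted p of 0.698, 0.907 and 0.751. Its SEs of 0.23 to 0.26 were wider than the 0.07 of Tnfrsf4. Tnfrsf14, the HVEM gene, differed by 0.20 ± 0.11 (SE, adjusted p = 0.379). Cd40 and the CD30 gene Tnfrsf8 had no kept probe.

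**Figure D3:**
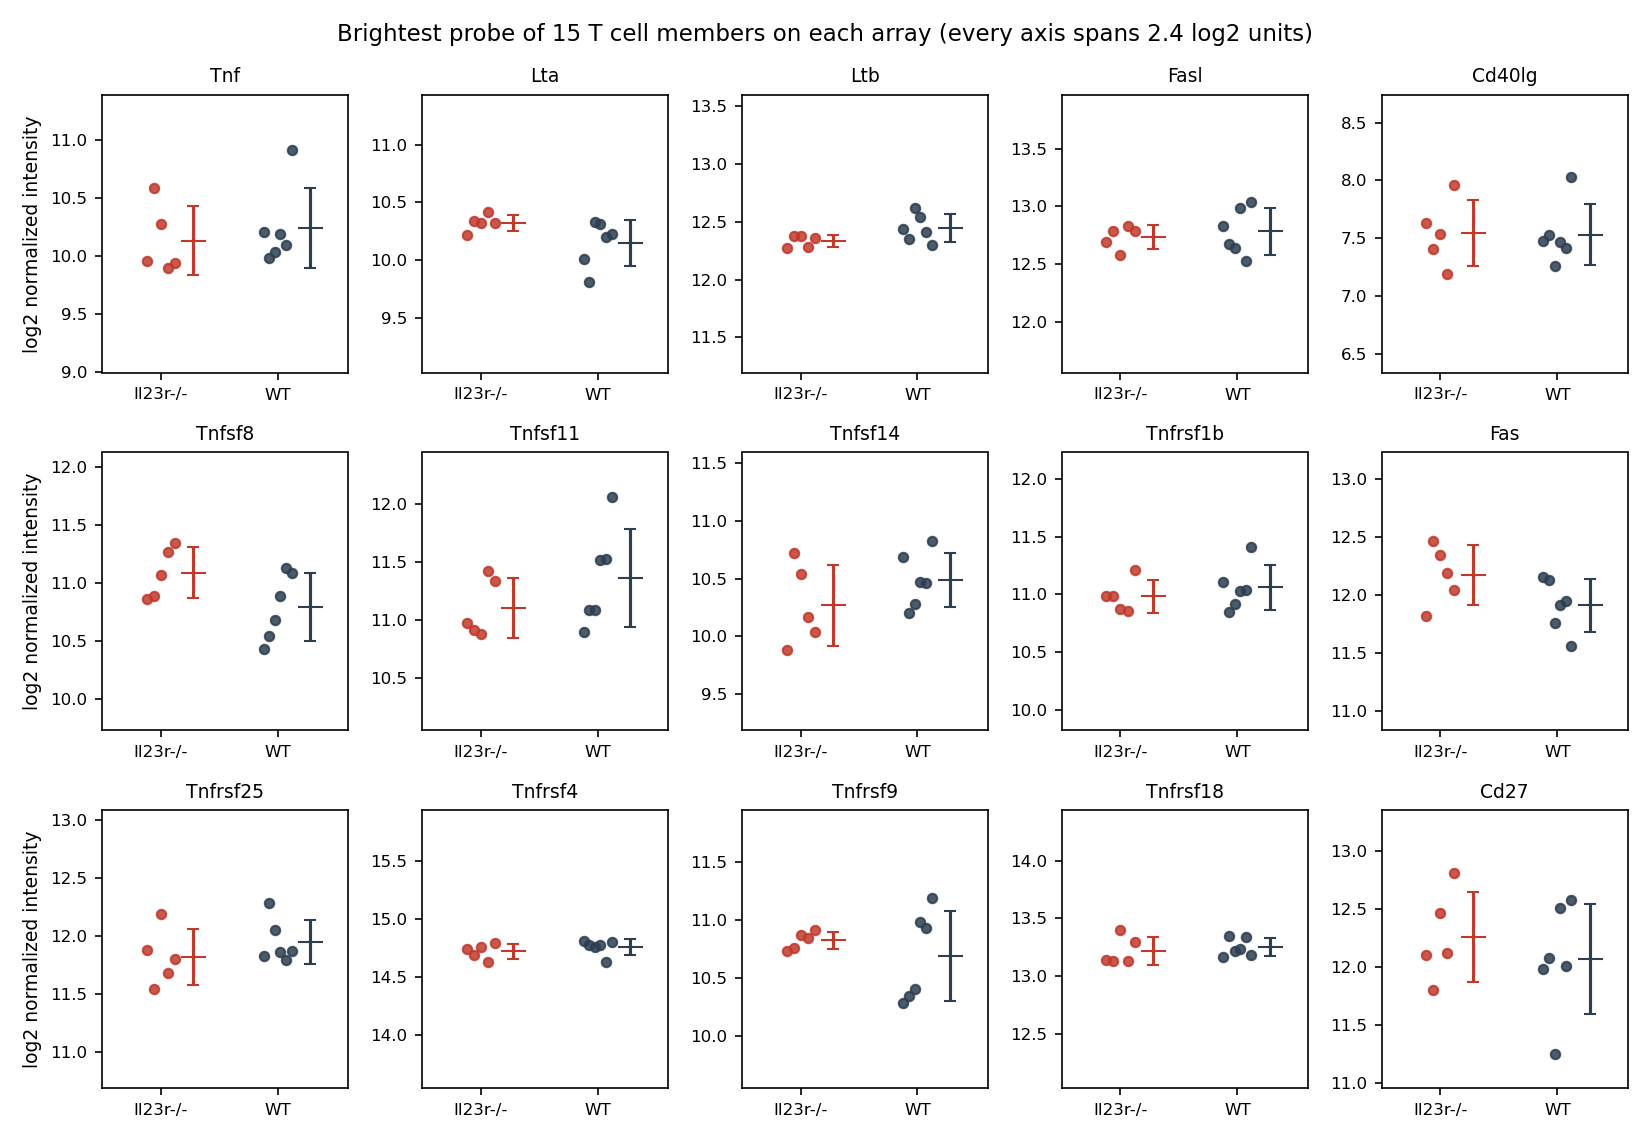
Log2 level per array for 15 T cell members of the superfamily (brightest probe, 1 point per array, with the mean and SD beside the points, Il23r-/- left of WT). The ranges overlap for each gene shown, and single WT arrays stand apart for Tnf and Cd40lg. For Tnfrsf4 1 WT array, at 14.63, lies little below the other WT arrays, at 14.76 to 14.81.

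Both called ligand probes belong to Tnfsf13b, whose product BAFF keeps B cells alive. This gene gave 8.51, 8.28, 8.17, 8.20 and 8.36 in Il23r-/- cells, against 7.92, 8.01, 7.38, 7.91, 7.86 and 7.49 in WT cells on its brighter probe, a difference of 0.55 ± 0.12 (SE, adjusted p = 0.0407). The second probe gave 8.32, 8.33, 8.22, 8.09 and 8.33 in Il23r-/- cells, against 7.82, 7.73, 7.32, 7.73, 8.02 and 7.67 in WT cells, a difference of 0.54 ± 0.11 (SE, adjusted p = 0.0273). On both, every Il23r-/- array was above every WT array, and the brighter probe was 1.46-fold higher on the linear scale. Another probe for the gene was above background on 1 of 11 arrays.

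These calls lay near the threshold. The brighter Tnfsf13b probe passed in 1 of 11 fits that left out an array, with adjusted p up to 0.0902, and the second in 6 of 11, with adjusted p up to 0.0738. Without WT replicate 4 or Il23r-/- replicate 1, 2, 3 or 5 neither passed, and the count of higher member probes was 1 in place of 3. Myeloid cells are a known source of BAFF, and 13 of 16 measured myeloid genes were kept, 10 with positive and 3 with negative differences (median 0.27), and 0 passed limma's test or an unadjusted p under 0.05. Cst3 averaged 12.20 ± 0.13 in Il23r-/- and 12.38 ± 0.12 in WT cells (SD), Lyz1 11.44 ± 0.38 in Il23r-/- and 11.00 ± 0.72 in WT cells, and Cd74 10.45 ± 0.31 in Il23r-/- and 10.23 ± 0.33 in WT cells. The summed linear level of the myeloid genes ran between 11252 and 13867 in Il23r-/- and between 8928 and 18874 in WT cells, so that the genotypes overlapped. Bright genes such as Cst3 and Lyz1 weigh most in this sum, and dim genes add little to it. WT replicates 2 and 3 had the highest sums, 18874 and 15789. On the brighter Tnfsf13b probe they read 8.01, the highest WT value, and 7.38, the lowest. On the second probe they read 7.73 and 7.32, the latter again the lowest. The part of myeloid RNA in the Tnfsf13b difference was not tested.

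**Figure D4:**
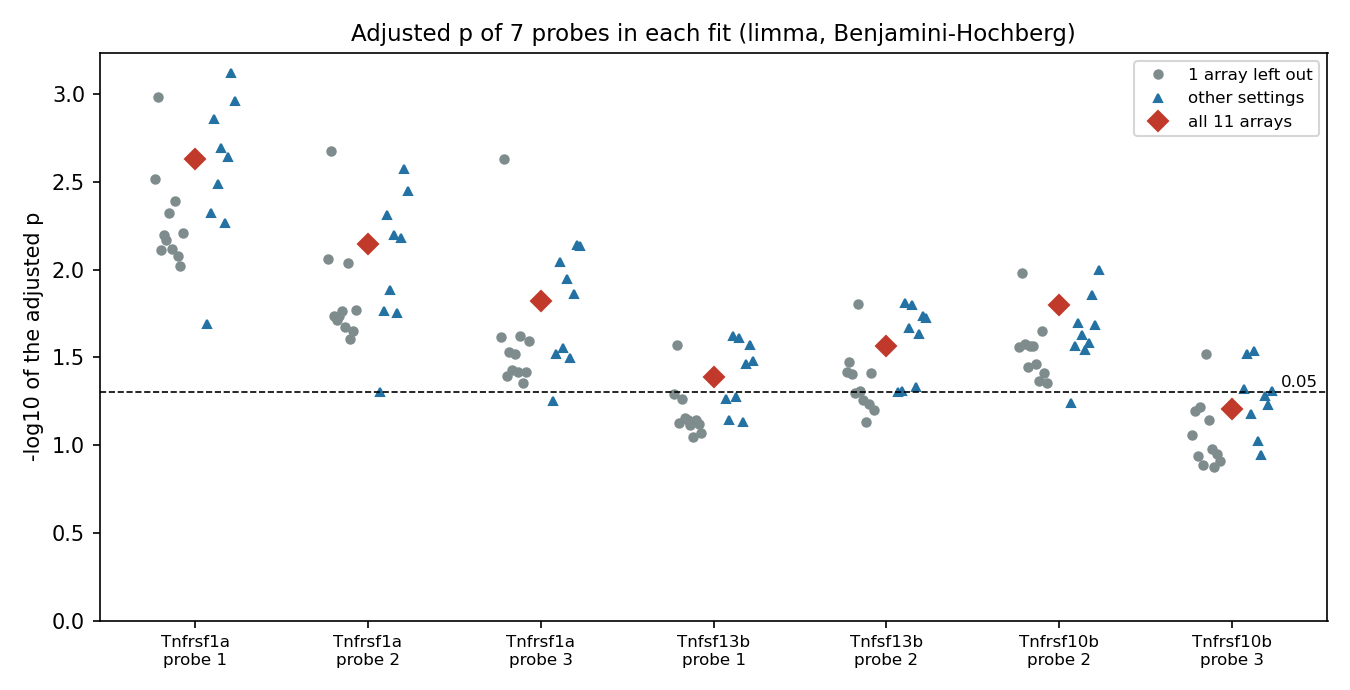
The -log10 of the adjusted p (vertical axis) for the called probes and the third Tnfrsf10b probe, with 1 point per fit: all 11 arrays (diamonds), 1 array left out (circles) and other settings (triangles). Points above the dashed line at 0.05 passed, as did every point of the 2 brighter Tnfrsf1a probes, while those of the Tnfsf13b probes lie on both sides.

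**Figure D5:**
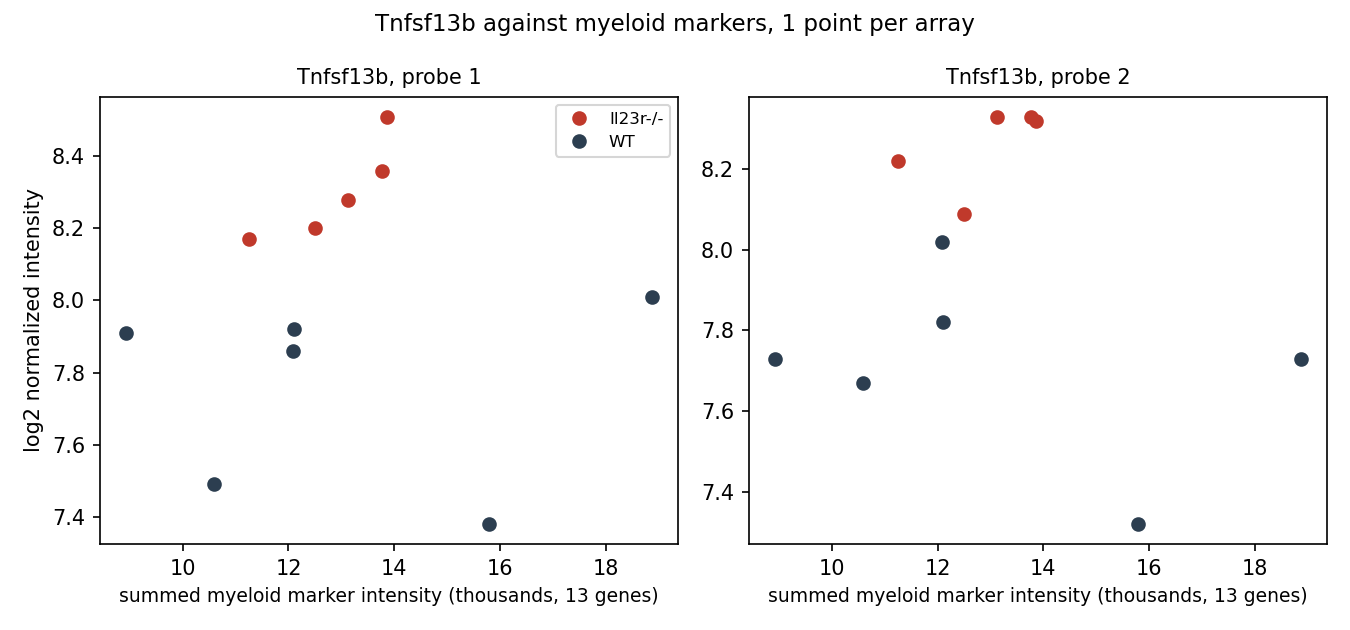
Log2 level of Tnfsf13b per array against the summed linear level of the 13 kept myeloid genes (1 panel per probe, 1 point per array, coloured by genotype). The genotypes overlap in the summed level and are apart in Tnfsf13b. The part of myeloid RNA in this difference was not tested.

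Tnfsf11 encodes RANKL, the ligand for osteoclast formation, which activated T cells also make. It gave 10.97, 10.91, 10.88, 11.42 and 11.34 in Il23r-/- cells, against 10.90, 11.31 and 12.06 as the lowest, median and highest in WT cells. The ranges overlapped, and the difference was -0.26 ± 0.19 (SE, adjusted p = 0.49). Tnfsfm13, the read-through of Tnfsf12 and Tnfsf13 that shares sequence with both and so is uncertain, differed by 0.13 ± 0.12 (SE, adjusted p = 0.584). Tnfrsf13b, the gene of the BAFF and APRIL receptor TACI, gave 8.44, 7.86, 8.25, 7.62 and 8.08 in Il23r-/- cells, against 7.46, 7.72 and 7.92 in WT cells. It overlapped between genotypes, with a difference of 0.36 ± 0.14 (SE, adjusted p = 0.202). The other BAFF receptor genes, Tnfrsf13c and Tnfrsf17, had no kept probe, and neither had Tnfrsf11a, the RANKL receptor gene.

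The remaining receptors, 5 kept probes with Tnfrsf13b among them, held 0 called probes, and 1, for Tnfrsf13b, had an unadjusted p under 0.05. Tnfrsf26, a mouse receptor gene on chromosome 7, gave 9.25, 8.64, 9.02, 9.05 and 8.99 in Il23r-/- cells, against 9.01, 9.15 and 9.45 as the lowest, median and highest in WT cells. It overlapped, with a difference of -0.20 ± 0.11 (SE, adjusted p = 0.38). Its neighbour Tnfrsf22, a decoy receptor for TRAIL, had 3 kept probes with differences of 0.02, 0.02 and -0.13. The decoy receptor genes Tnfrsf23 and Tnfrsf11b were above background on no array.

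In all, 14 member genes had no kept probe: Cd40, Ltbr, Tnfrsf11a, Tnfrsf11b, Tnfrsf12a, Tnfrsf13c, Tnfrsf17, Tnfrsf19, Tnfrsf21, Tnfrsf23, Tnfrsf8, Tnfsf12, Tnfsf15 and Tnfsf18. Of the 29 member probes left out, 24 were above background on no array and 5 on 1 to 4 arrays. Without the detection filter 0 of the 29 passed limma's test, and 2 had an unadjusted p under 0.05. The lowest adjusted p among them were 0.196 for a Cd40 probe, with a difference of 0.37, and 0.218 for a further Tnfrsf10b probe, with a difference of 0.44. Of the 49 kept probes, 45 were above background on all 11 arrays.

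Arrays of 1 genotype differed in ways that several members shared. WT replicate 6 held the highest WT value on 16 of 49 member probes (32.7%), beside 17.1% of all kept probes. These included both Tnf probes, Cd40lg, Fasl, Tnfsf11, the 3 Tnfrsf1b probes and the 3 Cd27 probes. Il23r-/- replicate 5 held the highest Il23r-/- value on 17 member probes (34.7%, beside 20.1% of all), and Il23r-/- replicate 2 on 14 (28.6%, beside 16.1%). Il23r-/- replicate 1 held it on 5 (10.2%, beside 28.3%). The lowest Il23r-/- value was held by replicate 1 on 17 member probes (34.7%, beside 24.1%) and by replicate 5 on 2 (4.08%, beside 20.4%). Replicate 2 was the highest Il23r-/- array on every kept probe of Tnf, Tnfsf14 and Fas. WT replicate 4 held the highest WT value on 0 member probes, beside 12% of all kept probes. Probes of 1 gene share their RNA, so these counts describe the arrays.

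Downstream of the receptors, a list of TNF receptor adaptors, kinases and caspases had 24 of its 27 genes kept, each taken by its brightest probe. Of these, 0 passed, and at an unadjusted p under 0.05 1 was higher and 2 were lower. The differences were positive for 13 and negative for 11, with a median of 0.03 beside -0.01 over all kept probes. Map3k14, the kinase NIK of the alternative NF-κB pathway, averaged 11.14 ± 0.15 in Il23r-/- and 11.43 ± 0.11 in WT cells (SD), a difference of -0.28 ± 0.09 (SE, adjusted p = 0.126). Traf6, an adaptor of CD40 and of interleukin 1 receptors, averaged 9.54 ± 0.16 in Il23r-/- and 9.27 ± 0.18 in WT cells, a difference of 0.27 ± 0.11 (adjusted p = 0.213). Map3k7, the kinase TAK1, averaged 8.65 ± 0.24 in Il23r-/- and 9.09 ± 0.41 in WT cells, a difference of -0.43 ± 0.18 (adjusted p = 0.237).

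Of 22 NF-κB-dependent feedback and target genes 21 were kept and 0 passed, while at an unadjusted p under 0.05 1 was higher and 7 were lower. Without the share of all kept probes at that p, these counts cannot be read as a result about the list. The differences were negative for 15 and positive for 6, with a median of -0.05. Irf1, a transcription factor also driven by interferon, averaged 14.04 ± 0.10 in Il23r-/- and 13.68 ± 0.15 in WT cells (SD), a difference of 0.36 ± 0.09 (SE, adjusted p = 0.0662). Bcl3, a nuclear IκB protein, averaged 10.49 ± 0.34 in Il23r-/- and 10.91 ± 0.15 in WT cells, a difference of -0.42 ± 0.14 (adjusted p = 0.149). Zc3h12a, the RNase Regnase-1, averaged 10.82 ± 0.17 in Il23r-/- and 11.15 ± 0.20 in WT cells, a difference of -0.33 ± 0.11 (adjusted p = 0.154). Tnfaip3, the feedback inhibitor A20, differed by -0.01 ± 0.08 (adjusted p = 0.947).

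Of 5 shedding proteases and partners 3 were kept and 0 passed by the brightest probe, with 0 of 3 also at an unadjusted p under 0.05, and all 3 had negative differences (median -0.18). Adam17, the protease that cuts TNF and both TNF receptors from the cell surface, differed by -0.13 ± 0.09 (SE, adjusted p = 0.47) on that probe. Its dimmer probe gave 9.07, 9.34, 9.14, 9.24 and 9.39 in Il23r-/- cells, against 9.55, 9.53, 9.72, 9.83, 9.54 and 9.56 in WT cells. On this probe the genotypes did not overlap and the difference was -0.39 ± 0.09 (SE, adjusted p = 0.045). It was picked out after its values were seen. Adam10 differed by -0.30 ± 0.31 (adjusted p = 0.649) and Rhbdf2, an ADAM17 partner, by -0.18 ± 0.13 (adjusted p = 0.473).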

How the data were processed

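RNA from 5 Il23r-/- and 6 WT samples was hybridised to 1-colour Illumina mouse bead arrays. The authors deposited linear intensity values that were not normalized, and the submitters' processing notes name GenomeStudio 1.6.0. The deposited detection score rose with intensity (Spearman correlation across probes of at least 0.9841), so 1 minus the score was read as the detection p. The log2 values the authors deposited were an alternative, and for other upstream steps nothing is stated in the labels. Rows were joined to probe names by their 11 values (differences of at most 1.36e-06). The platform annotation gave 34885 probes 1 gene symbol and 18 several, with 10378 not listed.

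Intensities were processed with neqc (limma 3.58.1, R 4.3.3; normexp, offset 16, quantile). Probes with detection p under 0.05 on at least 5 of 11 arrays were kept. The genotypes were compared by lmFit and eBayes, genotype being the only term. Two-sided p-values were adjusted after Benjamini-Hochberg over the 18003 kept probes, and under 0.05 a probe was called. The fit was tested on simulated data. Alternatives were other normalizations, filters, thresholds and array weights, a replicate block and leaving out each array. The members, lists and named genes were chosen with earlier results of these data known. Full values go to called members, a set list of T cell members and the 5 further members with the largest differences, and pathway genes are those called and up to 3 with the smallest p. Named beyond that rule after values were seen are Tnfaip3, Foxp3, Ctla4, Cdh1, Krt18, Rhbdf2, Adam10, Klre1, Nt5e, Itgae and the dimmer Adam17 probe. Promoters and gene order came from RefSeq, GRCm38.p6. Marker lists of B cell, epithelial and stromal genes held 1, 4 and 2 kept genes, with 0 called.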

Additional observations from a re-analysis of the deposited data

Results flagged for a closer look

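Single WT arrays stood apart from the other WT arrays on 3 member probes, by the gap to the nearest other array over the range of the group. On the brighter Tnf probe WT replicate 6 read 10.92, while the other WT arrays read 9.98 to 10.21, a gap of 0.759 of the range. On Cd40lg WT replicate 6 read 8.03, while the others read 7.26 to 7.53, a gap of 0.655. On Tnfrsf4 WT replicate 5 read 14.63, while the others read 14.76 to 14.81, a gap of 0.758. These are 3 of 98 groups examined (3.06%), and chance gives about 1 in 20. None of these probes passed the genotype test.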

How the results depend on the processing

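Over 49 member probes, 971 alternative results kept direction and side of the threshold, 27 changed sign on 8 probes that were not called (among them Tnf, Cd40lg, Fas, Cd27 and Tnfsf14), 21 lost the call, 6 gained it and 0 called results reversed. Part of this agreement was fixed in advance. The 0.1 threshold, the other detection filters and trend and robust fitting use the same values and design, so direction could not change. Replicates 1 to 5 without a block and the fit without WT replicate 6 are the same fit, counted under both names. Calls were lost on Tnfrsf1a, Tnfrsf10b and both Tnfsf13b probes. The cause was not tested. Of all kept probes 210 were higher and 110 lower. Lower calls numbered 58 with equal medians, 168 with array weights and 246 at an adjusted p under 0.1. Higher calls numbered 133 without the detection filter, where more probes were tested, and 403 at 0.1. Leaving out 1 array gave 93 to 321 higher (321 without WT replicate 2, 97, 93, 112, 103 and 110 without WT 3, WT 5, Il23r-/- 2, 3 and 4). It gave 63 to 186 lower (186 without WT replicate 2, 63, 64, 73, 69 and 71 without WT 3, WT 5, Il23r-/- 2, 4 and 5). With 1 array left out, member probes higher numbered 1 to 3, and lower 3 in every such fit. With array weights and at 0.1, 4 were higher. NF-κB target genes higher numbered 1 (Irf1) with no background correction, with trend and robust fitting and at 0.1. Lower they numbered 1 (Tnip1) with the authors' log2 values, and 0 to 1 without 1 array (Zc3h12a without WT replicate 2). The Tnfrsf1a minus Tnfrsf1b difference ran between -0.68 and -0.40. The brighter Tnfsf13b probe missed with equal medians (adjusted p = 0.0532) and without the detection filter (0.0736).

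With replicate number as a block, on replicates 1 to 5, 167 probes were higher and 104 lower, beside 164 and 98 on the same arrays without it, an alternative chosen after the data were seen. Member probes numbered 2 higher and 2 lower, and adaptors 1 higher (Traf5, adjusted p = 0.0418). Missed were the third Tnfrsf1a probe (-0.63, adjusted p = 0.0563), the second Tnfrsf10b probe (0.56, 0.0576) and the brighter Tnfsf13b probe (0.49, 0.0548), and the third Tnfrsf10b probe passed (0.65, 0.0477). Same-numbered arrays had correlations of deviations of 0.2426, 0.1736, -0.0134, 0.0795 and 0.2574, and 2 of 5 Il23r-/- arrays correlated best with their own number, so the numbers were not taken as pairs. Slide positions were not used here, and the normexp offset shrinks differences of dim probes.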

Other observations

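Some member genes that lie near each other in the genome were unlike in detection and others were alike. With 27 of 41 member genes kept, pairs of both kinds would be found in any order of genes, and a departure from that was not tested. On chromosome 6, Cd27 was kept on 3 probes and Tnfrsf1a on 3, while Ltbr, with 1 gene between it and each of them, was above background on no array. On chromosome 4, Tnfrsf1b was kept on 3 probes and its neighbour Tnfrsf8 on 0, and Tnfsf8 was kept while its neighbour Tnfsf15 was above background on no array. On chromosome 1, Tnfsf4 and Fasl were kept and Tnfsf18 between them was not. The TNF and lymphotoxin genes on chromosome 17 were kept on every probe, with 0 called. Also alike, with each gene kept, were Tnfsf9, Cd70 and Tnfsf14 on chromosome 17, Tnfrsf4 and Tnfrsf18 on chromosome 4, and Tnfrsf26 and Tnfrsf22 on chromosome 7.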
